A study of Mus musculus with 15 samples.

Results

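The genes described here are 10 ephrins and Eph receptors measured in mouse kidney: the ephrin-A ligands Efna1, Efna4 and Efna5, the ephrin-B ligands Efnb1 and Efnb2, the EphA receptors Epha1 and Epha2, and the EphB receptors Ephb2, Ephb3 and Ephb4. They were taken by symbol from a deposited table of 23284 genes, which holds all 22 mouse ephrin and Eph genes. Kidney RNA of wild-type (WT) mice was sequenced from 15 libraries, 5 for each treatment: D-alanine (D-ala), L-alanine (L-ala) and vehicle, each with a time of 2 h. The amino acids are mirror images of each other. Doses, routes, the make-up of the vehicle, and the age, sex and strain of the mice remain not given in the sources used here. Nothing in the labels ties each library to an animal of its own, so p-values measure the spread between these libraries, which may be technical.

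Eph receptors are receptor tyrosine kinases, and their ligands, the ephrins, sit on the surface of neighbouring cells, so signalling needs cell contact. Ephrin-A proteins are held in the membrane by a lipid anchor and bind mainly EphA receptors, whereas ephrin-B proteins span the membrane and bind mainly EphB receptors. Signals run both ways, into the receptor cell (forward) and into the ephrin cell (reverse), and they set cell borders, adhesion and the pattern of blood vessels. In vessels, ephrin-B2 marks arteries and EphB4 marks veins, and in the glomerulus ephrin-B1 is part of the podocyte slit diaphragm.

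Values are FPKM, a read density scaled to transcript length and library size, so levels can be compared between genes. Log2 fold changes are differences of mean log2(FPKM + 1), with their standard error (SE), and understate the change of low genes. Adjusted p-values come from limma fitted to the 11781 genes that reached 1 FPKM in no fewer than 5 libraries, with Benjamini-Hochberg adjustment over all of them, and a call means an adjusted p under 0.05. All 10 genes were tested. They were chosen by symbol with their FPKM in these libraries already seen and Efna1 known to differ between treatments, so their p-values describe where each gene stood in the fit over all genes and are no independent test. The 10 genes are also those of the family with at least 1 FPKM in all 15 libraries. Just inside that level, the lowest library of Ephb2 was at 1.04 FPKM and that of Ephb3 at 1.06 FPKM, and just outside it Efna3 ran from 0.351 to 1.47 FPKM.

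Reads counted to genes, estimated from the scaled counts, came to 7.54 to 10.9 M reads (mega reads) per library. With the scales used for that estimate, 66.8% of low values on average lay within 0.1 of a whole read. L-ala replicate 5 was unlike the rest of its group: after centring each gene, its mean correlation with the remaining L-ala libraries was -0.118, against 0.0709 to 0.288 for the other 14 libraries within their own groups. Markers of the tissue were present in every group. Summed FPKM of 8 proximal tubule markers was 8766 to 9619 in D-ala libraries, 8070 to 9391 in L-ala libraries and 7010 to 8251 in vehicle libraries. Summed marker levels of other cell types also had different ranges by treatment. The 5 neutrophil markers in the table summed to 2.42 to 11.3 FPKM under D-ala, 13.1 to 35.02 FPKM under L-ala and 0.641 to 7.81 FPKM under vehicle. The 7 macrophage markers summed to 45.1 to 64.7 FPKM under D-ala, 56.2 to 76.3 FPKM under L-ala and 65.2 to 90.2 FPKM under vehicle. The 8 podocyte markers summed to 90.98 to 132 FPKM under D-ala, 69.8 to 84.99 FPKM under L-ala and 50.01 to 85.9 FPKM under vehicle. For D-ala against vehicle 1 of 7 tested podocyte markers was called higher and 0 lower. Over all tested genes 6.53% were called higher and 4.92% lower. The log2 fold changes of the 7 podocyte markers had a median of 0.19 and a highest value of 2.43, so the members of that sum differed widely. The 6 thick ascending limb markers summed to 1585 to 2427 FPKM under D-ala, 1459 to 1986 FPKM under L-ala and 2163 to 2498 FPKM under vehicle. The 4 red blood cell markers in the table summed to 29.1 to 346 FPKM under D-ala, 204.5 to 559 FPKM under L-ala and 15.4 to 198 FPKM under vehicle. The 8 fibroblast and pericyte markers summed to 19.4 to 28.2 FPKM under D-ala, 19.55 to 39.7 under L-ala and 24.8 to 43.35 under vehicle. The 7 adipocyte markers summed to 70.5 to 506.5 FPKM under D-ala, 141.6 to 243.6 under L-ala and 99.5 to 426.9 under vehicle. None of these markers was at 0 in a whole group, and their part in the results on the family was not tested. In whole tissue, fewer cells of a type and less RNA per cell cannot be told apart.

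D-alanine was followed by higher levels of one ligand and one receptor of the family, Efna1 and Epha2, and the other 8 genes did not pass against vehicle. These 2 of 10 were higher and 0 lower, where 6.53% of all tested genes were called higher and 4.92% lower. Efna1 was 3.78 times and Epha2 2.86 times as high as under vehicle by the ratio of group means. For L-alanine against vehicle 0 of 10 were higher and 1 was lower, Ephb4, where 6.48% of genes were called higher and 4.53% lower. Between the isomers, 2 of 10 were higher with D-ala, Efna1 and Ephb4, and 0 lower, where 7.01% of genes were called higher and 6.66% lower.

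Efna1 codes for ephrin-A1, a preferred ligand of EphA2 that was first described, in human endothelial cells, as a product induced by tumour necrosis factor. The gene (ENSMUSG00000027954) lies on the minus strand of mouse chromosome 3, chr3:89271733-89281142 in GRCm38. RefSeq gives it 2 start sites 1306 bases apart. The 250 bases before each are shown from RefSeq (GRCm38.p6), read 5′ to 3′ on the gene's strand, because Efna1 is the gene on which the results turn; capitals mark GC boxes (GGGCGG on either strand).
Efna1, upstream start, chr3:89280952-89281201: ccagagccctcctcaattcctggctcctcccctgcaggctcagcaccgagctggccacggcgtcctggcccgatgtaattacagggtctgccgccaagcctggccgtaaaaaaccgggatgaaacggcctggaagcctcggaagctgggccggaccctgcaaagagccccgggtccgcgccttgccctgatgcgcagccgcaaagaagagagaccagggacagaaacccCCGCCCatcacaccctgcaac
Efna1, downstream start, chr3:89279646-89279895: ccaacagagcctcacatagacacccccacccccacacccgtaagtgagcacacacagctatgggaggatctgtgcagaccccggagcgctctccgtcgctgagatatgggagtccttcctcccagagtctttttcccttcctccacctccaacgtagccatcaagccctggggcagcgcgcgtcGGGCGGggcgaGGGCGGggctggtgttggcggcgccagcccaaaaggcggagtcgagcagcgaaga
Neither window held the CRE (TGACGTCA), AP-1 (TGANTCA) or E-box (CACGTG) letters, or an NF-kB motif, on either strand. Of 32851 promoter windows of the same length, 1.55% held the CRE letters, 6.75% the AP-1, 1.21% the NF-kB, 6.02% the E-box and 32.7% the GC box letters.

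In the 5 D-ala libraries Efna1 was at 108, 118, 107, 149.7 and 118 FPKM. In the L-ala libraries it was at 18.9, 24.3, 31.2, 25.1 and 25.8 FPKM, and in the vehicle libraries at 36.4, 32.4, 29.8, 32.3 and 28.2 FPKM. Every D-ala library lay above every other library, and the L-ala and vehicle libraries overlapped through L-ala replicate 3, with the other 4 L-ala libraries below all vehicle libraries. The group means were 120.2 ± 17.3 FPKM under D-ala, 25.05 ± 4.37 FPKM under L-ala and 31.8 ± 3.13 FPKM under vehicle (SD, n = 5 each). Its deposited count, scaled to a common size, ran from 245 to 1942 per library.

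Against vehicle, Efna1 was higher under D-ala by a log2 fold change of 1.88 (SE 0.11, 95% interval 1.64 to 2.12, limma adjusted p = 2.98e-08). By p-value it stood at rank 3 of the 11781 genes, and by size of rise at rank 30. Against L-ala, D-ala libraries were higher by 2.22 on the log2 scale (SE 0.11, 95% interval 1.99 to 2.46, limma adjusted p = 8.54e-09), rank 1 of all genes by p-value and rank 4 by size of rise. The difference of L-ala from vehicle was -0.34 on the log2 scale (SE 0.11, 95% interval -0.58 to -0.11, limma adjusted p = 0.0580) and did not pass. That value lay near the threshold: it passed after quantile normalization (limma adjusted p = 0.0483) and without L-ala replicate 3 (0.0318), L-ala replicate 5 (0.0484), vehicle replicate 5 (0.0499) or, through the shared spread, D-ala replicate 4 (0.0423), with a range over all its alternatives of 0.0318 to 0.131.

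**Figure D1:**
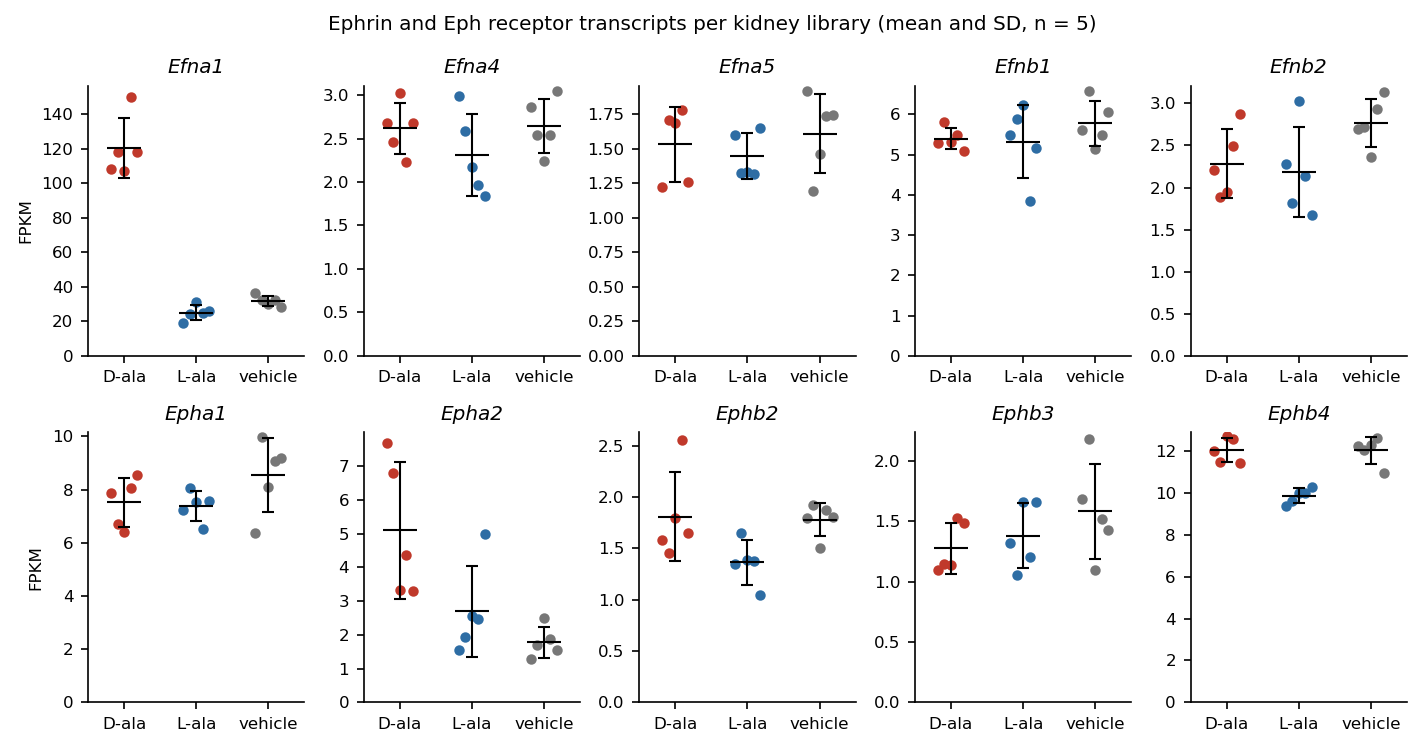
Each panel plots the FPKM of 1 gene in every library on an axis that starts at 0 (points), with the group mean and SD (bars, n = 5) for D-ala, L-ala and vehicle. The Efna1 points of D-ala lie at 107 to 149.7 FPKM, above all others, and the Ephb4 points of L-ala lie at 9.36 to 10.3 FPKM, below all others.

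Efna1 was the most abundant of the 22 family genes in every group. It made up 95.6 ± 0.656% of summed ephrin-A FPKM in D-ala libraries, 83.7 ± 4.87% in L-ala libraries and 85.3 ± 1.53% in vehicle libraries. Of the FPKM of all 22 genes it held 73.7 ± 2.36% in the D-ala group, 40.4 ± 3.93% in the L-ala group and 43.2 ± 2.89% in the vehicle group. The other 4 ephrin-A genes together stood at 5.39 ± 0.280 FPKM under D-ala, 4.77 ± 0.960 FPKM under L-ala and 5.45 ± 0.564 FPKM under vehicle. By mean level, Efna1 exceeded 96.4% of all genes in the table in the D-ala group, 85.9% in the L-ala group and 88.7% in the vehicle group.

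Efna4 and Efna5, the other ephrin-A ligands of the 10, were far lower than Efna1 and did not pass in any comparison. Efna4 averaged 2.62 ± 0.293 FPKM under D-ala, 2.31 ± 0.472 FPKM under L-ala and 2.65 ± 0.312 FPKM under vehicle (SD, n = 5 each). All groups overlapped. Its log2 difference of D-ala from vehicle was -0.01, with a 95% interval of -0.22 to 0.19. Efna5 averaged 1.53 ± 0.269 FPKM under D-ala, 1.44 ± 0.166 FPKM under L-ala and 1.61 ± 0.286 FPKM under vehicle, and its log2 difference of D-ala from vehicle was -0.04 (95% interval -0.24 to 0.16). Efna5 lies on chromosome 17 (chr17:62604184-62881317). An antisense gene of the annotation, 4731419I09Rik, overlaps Efna4, and the strand setting of the counting remains not given in the sources used here.

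Efna1, Efna3 and Efna4 lie side by side on chromosome 3, with Efna4 at chr3:89333390-89338028 and Efna3 between them. Of 16 protein-coding genes that reach into the 100 kb on either side of the GENCODE start of Efna1, 13 were tested. Under D-ala against vehicle their log2 fold changes ran from -0.24 to 0.31. Of the 13, 2 were called higher and 0 lower, where 6.53% of all tested genes were called higher and 4.92% lower. Mtx1, a mitochondrial import protein named after its value was seen, was among those called (0.19, limma adjusted p = 0.0343). Efna3 was at 0.10 (limma adjusted p = 0.717). For L-ala against vehicle the 13 ran from -0.37 to 0.27. There 2 were called higher and 1 lower, where 6.48% of all tested genes were called higher and 4.53% lower. For D-ala against L-ala the 13 ran from -0.27 to 0.42, where 7.01% of all tested genes were called higher and 6.66% lower. The 1 called there was Zbtb7b, a transcription factor known from T cell fate (0.42, limma adjusted p = 0.00417). All 13 values lay below those of Efna1 in both D-ala comparisons.

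**Figure D2:**
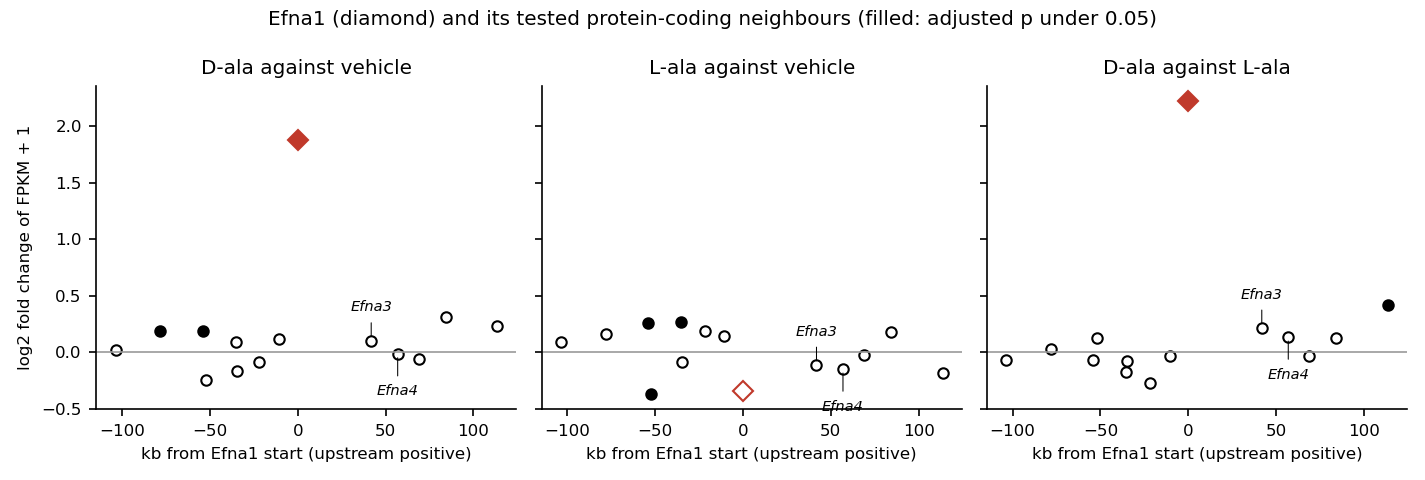
Each panel plots the log2 fold change of FPKM + 1 in 1 comparison (vertical axis) against the distance in kb of a gene's start from that of Efna1 (horizontal axis, upstream positive), for Efna1 (diamond) and its 13 tested protein-coding neighbours (circles), filled where the adjusted p was under 0.05. Efna1 stands at 1.88 and 2.22 in the D-ala comparisons, where its neighbours stay between -0.27 and 0.42.

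Epha2 codes for EphA2, an epithelial receptor that binds ephrin-A1 (ENSMUSG00000006445, plus strand, chr4:141301240-141329384). It was the receptor that rose under D-ala. The 250 bases before its RefSeq start are shown because, of the windows of the 10 genes, this one held the CRE letters, the full-length site bound by CREB and related factors. Capitals mark the CRE, 33 to 26 bases before the start, and a GC box.
Epha2, chr4:141300971-141301220: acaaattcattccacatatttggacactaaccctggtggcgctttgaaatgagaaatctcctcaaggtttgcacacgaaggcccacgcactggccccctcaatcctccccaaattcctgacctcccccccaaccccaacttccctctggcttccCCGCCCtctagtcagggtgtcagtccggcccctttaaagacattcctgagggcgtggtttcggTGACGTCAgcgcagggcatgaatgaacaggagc
This match is a description of the letters and no measurement of binding.

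Epha2 was at 7.67, 6.78, 3.33, 4.37 and 3.301 FPKM in the 5 D-ala libraries. In the L-ala libraries it was at 1.54, 1.93, 2.56, 2.46 and 5.001 FPKM, and in the vehicle libraries at 1.30, 1.69, 2.49, 1.89 and 1.54 FPKM. All D-ala libraries lay above all vehicle libraries, but they were spread widely, with replicates 1 and 2 well above the other 3. L-ala replicate 5, the library unlike its group, reached into the D-ala range. Group means were 5.09 ± 2.02 FPKM under D-ala, 2.697 ± 1.35 FPKM under L-ala and 1.78 ± 0.451 FPKM under vehicle (SD, n = 5 each).

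Against vehicle, Epha2 was higher under D-ala by a log2 fold change of 1.08 (SE 0.23, 95% interval 0.59 to 1.58, limma adjusted p = 0.00792). Against L-ala the difference was 0.72 (SE 0.23, 95% interval 0.23 to 1.22) and missed the threshold (limma adjusted p = 0.0504, range over its alternatives 0.00597 to 0.118). Without L-ala replicate 5 it was 0.92 and passed (limma adjusted p = 0.00597). It also passed without D-ala replicate 3 (0.0475) or D-ala replicate 5 (0.0393), and with a filter of 1 FPKM in all libraries (0.0451). L-ala differed from vehicle by 0.36 (95% interval -0.13 to 0.85, limma adjusted p = 0.305), and by 0.17 without L-ala replicate 5. The isomers' doses are not given, so differences between D-ala and L-ala are between these treatments as given.

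Epha1, a receptor of epithelia, was the more abundant EphA receptor and did not pass in any comparison. It averaged 7.51 ± 0.918 FPKM under D-ala, 7.38 ± 0.568 FPKM under L-ala and 8.54 ± 1.38 FPKM under vehicle. Its log2 difference was -0.16 for D-ala against vehicle (95% interval -0.37 to 0.05) and -0.18 for L-ala against vehicle (95% interval -0.39 to 0.04). The ratio of Epha2 to Epha1 FPKM was 0.687 ± 0.285 in D-ala libraries, 0.366 ± 0.179 in L-ala libraries and 0.211 ± 0.0571 in vehicle libraries. In D-ala libraries it ran from 0.387 to 1.01, above the vehicle range of 0.168 to 0.308. Epha1 (chr6:42358487-42373268) overlaps Zyx and the antisense gene 2010310C07Rik on the other strand, so part of its reads may belong to them.

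Ephb4 codes for the receptor of ephrin-B2 on veins (ENSMUSG00000029710, plus strand, chr5:137350109-137378669). It was the only gene of the 10 that passed for L-ala against vehicle. The 250 bases before its RefSeq start are shown for comparison with those of Efna1 and Epha2, and capitals mark 4 GC boxes.
Ephb4, chr5:137349859-137350108: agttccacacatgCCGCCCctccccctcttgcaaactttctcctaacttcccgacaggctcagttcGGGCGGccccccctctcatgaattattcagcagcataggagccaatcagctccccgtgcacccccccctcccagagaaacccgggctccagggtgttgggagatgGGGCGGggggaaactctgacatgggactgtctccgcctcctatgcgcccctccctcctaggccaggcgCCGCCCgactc

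Ephb4 was at 12.002, 11.5, 12.7, 12.6 and 11.4 FPKM in the D-ala libraries. It was at 9.36, 9.63, 9.98, 9.99 and 10.3 FPKM in the L-ala libraries and at 12.2, 12.05, 12.3, 12.6 and 10.9 FPKM in the vehicle libraries. Every L-ala library lay below every library of the other groups, and the ranges of the D-ala and vehicle libraries overlapped. The means were 12.03 ± 0.592 FPKM under D-ala, 9.85 ± 0.362 FPKM under L-ala and 12.02 ± 0.632 FPKM under vehicle (SD, n = 5 each). Ephb4 was lower under L-ala than under vehicle by a log2 fold change of -0.26 (SE 0.05, limma adjusted p = 0.0102). D-ala libraries were higher than L-ala libraries by 0.26 (SE 0.05, limma adjusted p = 0.00583). The difference of D-ala from vehicle was 0.00, with a 95% interval of -0.11 to 0.11. Zan, a gene on the other strand, overlaps Ephb4.

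Endothelial markers, among whose cells Ephb4 and Efnb2 are known, were set beside these values. Of 12 endothelial markers, 0 rose and 3 fell under D-ala, with a median log2 fold change of -0.38, and 0 rose and 5 fell under L-ala, with a median of -0.45, against vehicle. Over all genes tested the medians were 0.00 and 0.01, and 4.92% and 4.53% of genes fell. Between D-ala and L-ala, 7.01% of all genes were higher and 6.66% lower. Of the endothelial markers 1 was higher and 0 lower there, with a median of 0.05. Their summed FPKM was 135 to 184 under D-ala, 111 to 237 under L-ala and 162 to 258 under vehicle, and none was at 0 in a whole group. In L-ala libraries the sum of thick ascending limb markers lay below, and that of red blood cell and neutrophil markers above, every vehicle library. For L-ala against vehicle, 1 of 6 tested thick ascending limb markers was called lower. Of the tested blood cell markers, 0 of 3 for red blood cells and 2 of 2 for neutrophils were called higher. Over all genes, 6.48% were called higher and 4.53% lower in that comparison. The part of these markers in the lower Ephb4 of the L-ala group was not tested.

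Efnb2, the arterial partner of Ephb4, followed these markers more closely than Ephb4 did. Across the 15 libraries, Pearson's r of log2(FPKM + 1) with the mean of the 12 markers was 0.87 for Efnb2 and 0.35 for Ephb4. The points share groups and library depth, and r is given as a description. The marker mean, on that log2 scale, ran from 3.02 to 3.47 in D-ala libraries, 2.78 to 3.64 in L-ala libraries and 3.25 to 3.83 in vehicle libraries, so the groups shared only part of the marker range. Efnb2 was at 2.21, 1.88, 1.95, 2.49 and 2.88 FPKM in the D-ala libraries, at 2.27, 1.81, 3.03, 2.14 and 1.67 FPKM in the L-ala libraries, and at 2.698, 2.72, 2.36, 2.94 and 3.13 FPKM in the vehicle libraries. The groups overlapped, and neither difference from vehicle passed. It was -0.20 for D-ala (95% interval -0.44 to 0.03, limma adjusted p = 0.251) and -0.25 for L-ala (95% interval -0.49 to -0.02, limma adjusted p = 0.130). Without L-ala replicate 3, the L-ala library with the highest Efnb2, the L-ala value was -0.34 and passed (limma adjusted p = 0.05 after rounding), with a highest adjusted p over its alternatives of 0.392.

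**Figure D3:**
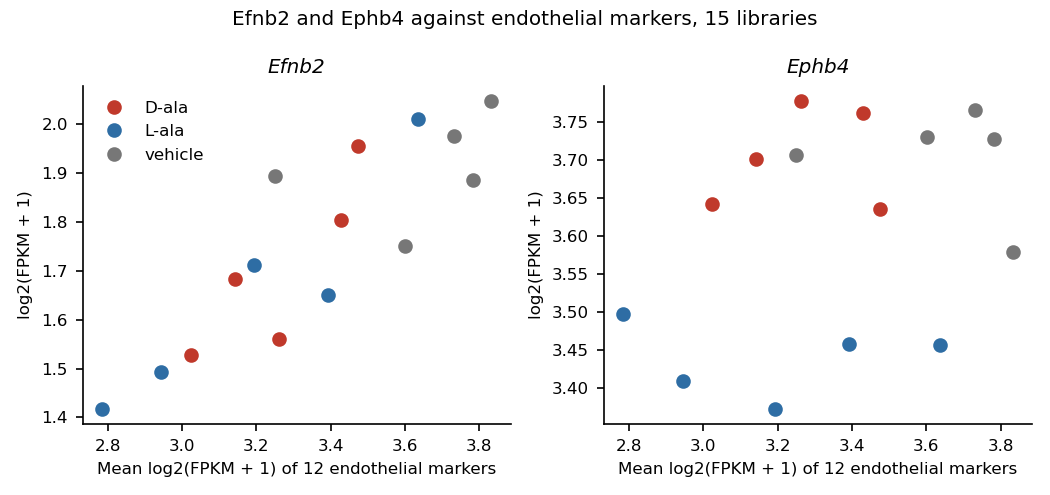
The level of Efnb2 (left) and Ephb4 (right), as log2(FPKM + 1) on the vertical axes, is plotted against the mean log2(FPKM + 1) of 12 endothelial markers in the 15 libraries, coloured by group. Efnb2 is higher where the markers are (r = 0.87), whereas Ephb4 of the L-ala libraries lies below all others, at marker means of 2.78 to 3.64.

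Efnb1, the other ephrin-B ligand, did not pass in any comparison. It averaged 5.40 ± 0.264 FPKM under D-ala, 5.32 ± 0.912 FPKM under L-ala and 5.77 ± 0.554 FPKM under vehicle. Of 7 tested podocyte markers, 1 rose and 0 fell for D-ala against vehicle, where 6.53% of all genes rose, and 2 were higher and 0 lower between D-ala and L-ala, where 7.01% of all genes were higher. The log2 difference of Efnb1 between D-ala and vehicle was -0.08 (95% interval -0.27 to 0.12).

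Ephb2 and Ephb3, EphB receptors best known from nerve fibres and the gut lining, were the lowest of the 10 together with Efna5. Ephb2 averaged 1.81 ± 0.434 FPKM under D-ala, 1.36 ± 0.216 FPKM under L-ala and 1.78 ± 0.161 FPKM under vehicle. In 4 of 5 L-ala libraries it lay below all vehicle libraries, but the difference of -0.24 did not pass (95% interval -0.45 to -0.03, limma adjusted p = 0.117). D-ala differed from L-ala by 0.24 for Ephb2 (limma adjusted p = 0.108). Ephb3 averaged 1.28 ± 0.212 FPKM under D-ala, 1.38 ± 0.271 FPKM under L-ala and 1.58 ± 0.398 FPKM under vehicle, and all groups overlapped. Summed over the 5 EphB genes, receptor transcript stood at 16.1 ± 0.913 FPKM under D-ala, 13.5 ± 0.414 FPKM under L-ala and 16.3 ± 0.775 FPKM under vehicle. Ephb4 alone averaged 12.03, 9.85 and 12.02 FPKM in the same order, so it made up most of each sum.

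The median log2 fold change of the 10 was -0.03 for D-ala against vehicle, -0.16 for L-ala against vehicle and 0.09 between D-ala and L-ala, and the medians over all genes were 0.00, 0.01 and -0.01. D-ala against vehicle had 1349 called genes, of which 57.0% were higher, and L-ala against vehicle 1297, of which 58.8% were higher. After quantile normalization higher genes made up 46.95% and 40.7% of the calls, whereas the called genes among the 10 kept their direction. The comparisons share groups, so their values are not independent of each other.

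**Figure D4:**
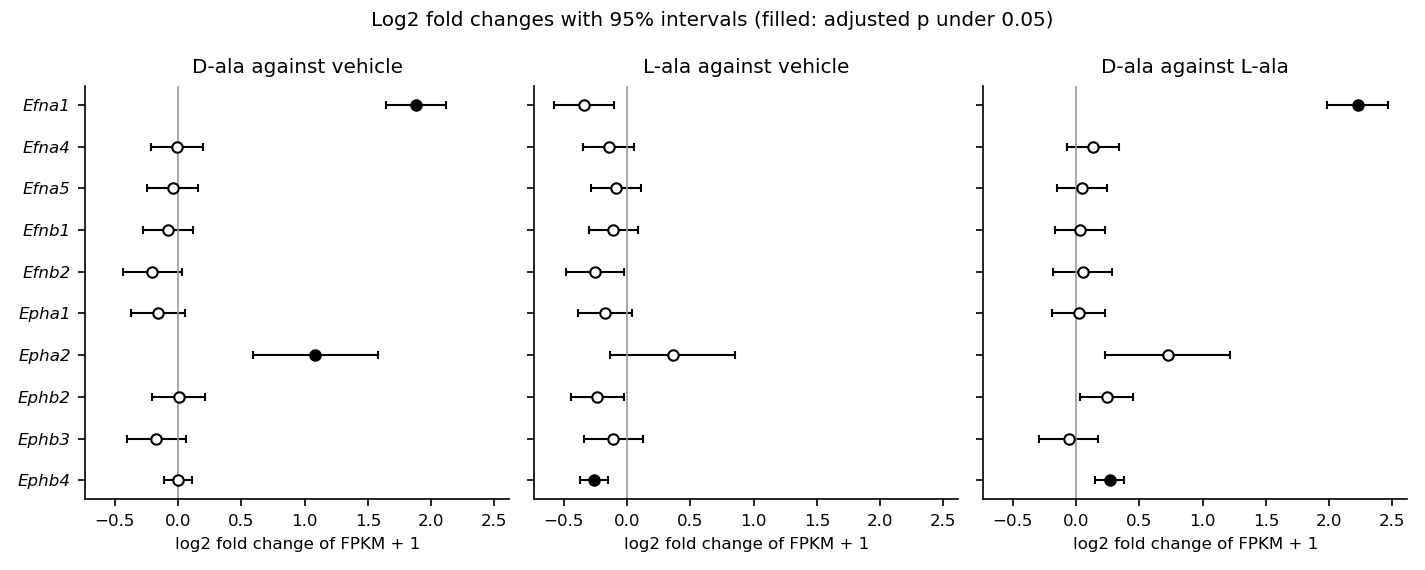
Log2 fold changes of FPKM + 1 (horizontal axes) with 95% intervals are plotted for the 10 genes, with 1 panel per comparison, and filled points passed an adjusted p of 0.05. Efna1 and Epha2 stand to the right for D-ala against vehicle at 1.88 and 1.08, and the 8 genes that did not pass lie between -0.20 and 0.00.

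The order of levels was much the same in all groups. Efna1 led, followed by Ephb4, Epha1 and Efnb1, under each treatment. The ranges of Efna1, Ephb4 and Epha1 did not overlap with each other within any group, and those of Epha1 and Efnb1 overlapped under vehicle but under neither isomer. Below them, Efnb2, Efna4, Epha2, Ephb2, Efna5 and Ephb3 followed under vehicle, each overlapping with the next. Epha2 stood at position 5 under D-ala, with its lowest library at 3.301 FPKM above the highest Efna4 library at 3.02 FPKM, at position 5 under L-ala and at position 7 under vehicle.

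The other 12 genes of the family were low, and 11 of them did not reach the level for testing. Epha5 and Epha10 were at 0 FPKM in all 15 libraries, Epha8 in 14, Epha6 in 12 and Epha3 in 6. Efna2 and Efnb3 stayed at or below 0.419 FPKM, and Epha4, Epha7, Ephb1 and Ephb6 at or below 0.795 FPKM in every library. Efna3, the tested one, averaged 1.13 ± 0.242 FPKM under D-ala, 0.873 ± 0.491 FPKM under L-ala and 0.978 ± 0.205 FPKM under vehicle. It did not pass in any comparison, with scaled counts of only 4 to 15 per library.

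**Figure D5:**
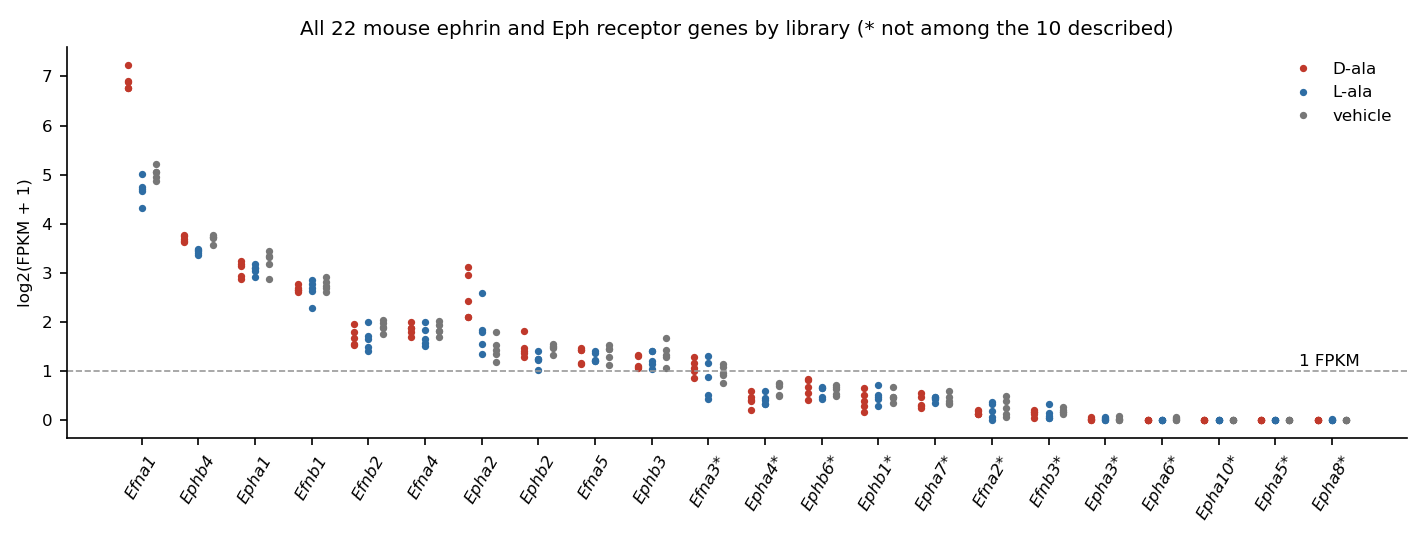
The level of all 22 ephrin and Eph genes in every library is plotted as log2(FPKM + 1) (vertical axis), ordered by the vehicle mean (horizontal axis) and coloured by group, with a dashed line at 1 FPKM. Efna1 is the highest gene in each group, Epha2 lies above its neighbours on the axis under D-ala, and genes marked * are the other 12, of which only Efna3 crosses the line.

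Among the 45 pairs of the 10 genes, Pearson's r across the 15 libraries ranged from -0.487 to 0.694 with a median of 0.191, given as a description over points that share groups and depth. The highest value joined Efna1 and Epha2, and with group means removed their r was 0.12. Over all tested genes, those most like Efna1 were Klf3 (r = 0.97), Bhlhe40 (0.96), Tenc1 (0.96), Vegfa (0.95) and Gltscr1 (0.95). Klf3 and Bhlhe40 code for transcriptional repressors, Tenc1 for a tensin of focal adhesions and Vegfa for the vascular growth factor. Bhlhe40 was at 135 ± 25.1 FPKM under D-ala, 44.2 ± 5.10 FPKM under L-ala and 44.6 ± 9.87 FPKM under vehicle, and Klf3 at 15.4 ± 2.44, 7.09 ± 0.970 and 8.01 ± 0.742 FPKM in the same order of groups. With group means removed, r with Efna1 was 0.66 for Klf3 and 0.65 for Bhlhe40, but 0.28 for Tenc1, 0.50 for Vegfa and 0.22 for Gltscr1. The gene most like Epha2 was Eprs, an aminoacyl-tRNA synthetase (r = 0.92), and that most like Ephb4 was Lrig2 (0.93). For the others these were Ahnak for Efna4 (0.89), Slc14a1 for Efna5 (0.89), Sox12 for Efnb1 (0.86), Rabl2 for Efnb2 (0.91), Smad3 for Epha1 (0.88), Syne2 for Ephb2 (0.83) and Dlg3 for Ephb3 (0.78). All these genes were picked as the highest of 11780 values over only 15 libraries, a choice that favours high r. No link between the genes was tested.

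Of 29 tested genes that act below Eph receptors, 1 rose, 5 fell and 23 did not pass when D-ala was set against vehicle, with a median log2 fold change of -0.12. Over all tested genes 6.53% were called higher and 4.92% lower, with a median of 0.00. The 4 with the smallest p among those that fell were adaptors and a kinase. Nck1, an SH2 and SH3 adaptor, was at 10.7 ± 0.922 FPKM under D-ala and 15.5 ± 1.27 FPKM under vehicle (log2 fold change -0.50, SE 0.07, limma adjusted p = 2.07e-04). Crk, an adaptor of the same kind, was at 37.01 ± 2.70 FPKM under D-ala and 48.5 ± 1.73 FPKM under vehicle (-0.38, SE 0.06, limma adjusted p = 4.20e-04). Grb7, an adaptor that binds EphB1 in human cells, fell by 0.68 on the log2 scale (limma adjusted p = 0.00542), and Yes1, a Src-family kinase, fell by 0.32 (limma adjusted p = 0.00406). Pik3r1, the regulatory subunit of phosphoinositide 3-kinase, rose by 0.34 (limma adjusted p = 0.0468).

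Under L-ala against vehicle, 1 effector rose, 3 fell and 25 did not pass, with a median of -0.16, where 6.48% of all genes were called higher and 4.53% lower, with a median of 0.01. Chn2, a Rac-specific GTPase-activating protein, rose by 0.19 (limma adjusted p = 0.0440). Abl1, a kinase, fell by 0.41 (limma adjusted p = 0.0118), Grb7 by 0.50 (limma adjusted p = 0.0341) and Vav2, an exchange factor of small GTPases, by 0.52 (limma adjusted p = 0.0360). Between D-ala and L-ala, 2 were higher and 4 lower under D-ala, where 7.01% of all genes were higher and 6.66% lower. Pik3r1 (0.54, limma adjusted p = 0.00534) and Abl1 (0.35, limma adjusted p = 0.0182) were the higher ones. Nck1 (-0.33, limma adjusted p = 0.00591), Rhoa (-0.25, limma adjusted p = 0.0147), Crk (-0.22, limma adjusted p = 0.01996) and Yes1 (-0.21, limma adjusted p = 0.0377) were the lower ones. The comparisons with vehicle share their vehicle libraries.

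Of 12 tested partners of ephrin reverse signalling, 1 rose and 1 fell for D-ala against vehicle, and 0 rose and 2 fell for L-ala against vehicle. Between D-ala and L-ala, 2 were higher with D-ala and 0 lower. Among all tested genes, the higher and lower shares were 6.53% and 4.92% for D-ala against vehicle, 6.48% and 4.53% for L-ala against vehicle, and 7.01% and 6.66% between the isomers, so counts of 1 are near what all genes show. Stat3, a transcription factor that ephrin-B1 recruits in frog embryos, was at 22.02 ± 2.79 FPKM under D-ala, 15.1 ± 0.827 FPKM under L-ala and 16.2 ± 1.61 FPKM under vehicle. Its log2 fold change was 0.42 for D-ala against vehicle (limma adjusted p = 0.00379) and 0.51 for D-ala against L-ala (limma adjusted p = 0.00149). Ptpn13, a phosphatase that binds the ephrin-B tail, was lower than in vehicle libraries, with log2 fold changes of -0.35 for D-ala (limma adjusted p = 0.0309) and -0.47 for L-ala (limma adjusted p = 0.0111). Tjp1, a tight junction scaffold, fell by 0.31 for L-ala against vehicle (limma adjusted p = 0.0220), and Pick1, a PDZ protein, was higher with D-ala than L-ala by 0.20 (limma adjusted p = 0.0412).

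Of 15 tested genes of Eph and ephrin turnover, 0 rose and 2 fell for D-ala against vehicle, where 4.92% of all genes fell. Adam10 and Adam17, proteases that shed cell-surface proteins, were the 2. Adam10, which cleaves ephrin-A ligands bound to their receptors, was at 15.01 ± 0.815 FPKM under D-ala, 17.5 ± 0.429 FPKM under L-ala and 17.4 ± 0.472 FPKM under vehicle. Its log2 fold change was -0.20 for D-ala against vehicle (SE 0.05, limma adjusted p = 0.0108) and -0.21 against L-ala (SE 0.05, limma adjusted p = 0.0113). Adam17 fell by 0.26 on the log2 scale for D-ala against vehicle (limma adjusted p = 0.0105). For L-ala against vehicle 0 rose and 1 fell, the receptor phosphatase Ptprj (-0.28, limma adjusted p = 0.0429), where 4.53% of all genes fell. Between D-ala and L-ala 0 were higher and Adam10 was the 1 that was lower, where 6.66% of all genes were lower.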

How the data were processed

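RNA of mouse kidney was measured in 15 libraries, 5 per treatment, grouped by the labelled treatment. Per the labels' protocols, TRIzol was used for the RNA and a TruSeq kit for stranded mRNA for the libraries. The submitters' processing notes name Bowtie2 2.2.3, TopHat2 2.0.13, SAMtools 0.1.19 and the build mm10, without their roles. The counting program and its strand setting remain not given in the sources used here. Tests used the authors' FPKM, so called per the file headers. The deposited log2 signal was not used. It equals log2 FPKM with the gene's mean removed to within 0.0012, checked over the 10664 genes that reach 1 FPKM in all libraries. The deposited numbers headed as counts were treated as a score: each library's counts had been rescaled and then rounded. The spacing of low values gave an estimate of the scale and of the reads counted to genes. FPKM carry no counting interval, so precision is the spread between libraries.

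The 11781 genes reaching 1 FPKM in no fewer than 5 libraries were fitted (11503 were not) as log2(FPKM + 1) with limma 3.58.1 in R 4.3.3, with 1 mean per group over all 15 libraries and empirical Bayes moderation with trend and robust settings. The procedure was tested on simulated data with independent normal noise for each gene. Such data hold no shifts shared within a library, so that test shows only that the procedure ran as meant. No 2 libraries of a group were identical or as close as sampling noise gives. Alternatives were a pseudocount of 0.1, other filters, median-of-ratios and quantile scaling, fits of 2 groups only, plain moderation, removal of length or GC trends, and leaving out each library. The members and gene lists were chosen with earlier results of these data known. Named genes were all 10 members, the other family genes, up to 4 called genes per direction of each pathway list and the genes most like each member (5 for Efna1, 1 for each other). Gene positions are from GENCODE M21 (GRCm38, as mm10), and promoters from RefSeq.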

Additional observations from a re-analysis of the deposited data

Results flagged for a closer look

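Of 30 sets of 5 libraries (10 genes in 3 groups), 1 held a library far from the others, and chance flags about 1 in 20 such sets. Efna1 in D-ala replicate 4 was at 149.7 FPKM, whereas the other D-ala libraries lay between 107 and 118 FPKM. The gap to the next library was 0.742 of the group's range, above the limit of 0.71. Without that library Efna1 stayed called in both D-ala comparisons.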

How the results depend on the processing

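The 5 calls among the 10 genes (Efna1 and Epha2 for D-ala against vehicle, Ephb4 for L-ala against vehicle, Efna1 and Ephb4 between D-ala and L-ala) kept their direction and passed in all 24 alternatives of each comparison. Of 720 member results under the alternatives, 680 kept direction and side of the threshold, 10 newly passed, 0 no longer passed and 30 changed sign, all 30 for genes that did not pass. In log2 units, the changed signs for D-ala against vehicle were Ephb2 at -0.0003996 with a pseudocount of 0.1, Efna4 at 0.0163 and Ephb4 at -0.01163 after quantile normalization, and Ephb2 at -0.037 and Ephb4 at -0.0435 with the GC trend removed. With 1 library left out, this comparison ran from -0.05321 to 0.02688 for Efna4, -0.1049 to 0.001656 for Efna5, -0.08405 to 0.04961 for Ephb2 and -0.02895 to 0.01883 for Ephb4. Efna5 was at 0.01625 for L-ala against vehicle with the length trend removed. Between D-ala and L-ala, quantile normalization gave -0.005398 for Efna5, -0.02141 for Efnb1 and -0.009433 for Epha1. Removing the length trend gave -0.02672 for Efna5, -0.01243 for Efnb1, -0.009234 for Efnb2 and -0.02358 for Epha1, and removing the GC trend -0.007383 for Epha1. With 1 library left out, the D-ala and L-ala difference ran from -0.06189 to 0.08139 for Efnb1, -0.01217 to 0.1386 for Efnb2 and -0.02355 to 0.06824 for Epha1.

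The count of the 10 called for L-ala against vehicle was 1, against 2 after quantile normalization and 1 to 3 with 1 library left out, where Efna1 passed as well and, without L-ala replicate 3, also Efnb2. The count of all genes called depended more on the libraries. For D-ala against vehicle it was 1349, and 814 (without vehicle replicate 4) to 1591 with 1 library left out. For L-ala against vehicle it was 1297, against 575 after quantile normalization, 635 in a fit of those groups only, 794 with the length trend removed, and 321 (without vehicle replicate 4) to 2577 (without L-ala replicate 5) with 1 library left out. It also moved by over 1.5 times without vehicle replicate 1 (805) or 2 (759) or L-ala replicate 1 (627), 3 (802) or 4 (391). Between D-ala and L-ala it was 1611, against 985 in a fit of those groups only, and 770 (without L-ala replicate 4) to 2763 (without L-ala replicate 5), with 1025 without L-ala replicate 1 and 1015, 963 and 1057 without D-ala replicate 1, 3 and 4. The members called numbered 2 to 3 there, Epha2 being the added one. The cause of these shifts was not tested. No paired analysis was possible because the labels give the groups no shared replicate numbers. FPKM hold no depth of their own, so genes near 1 FPKM are the least certain.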
